A study of Homo sapiens with 60 samples.

Results

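The genes described here are 39 genes of the extracellular matrix and the basement membrane, chosen by symbol and read from a table of expected counts for 60675 genes in A549, a cell line derived from a human lung adenocarcinoma. Of the 39, 36 reached 1 CPM (counts scaled to a library total normalised across libraries) in at least 1 group and were kept, and LAMA1, FREM2 and TNC, whose highest group means were 0.329 CPM or less, were left out. The cells were collected 24 h after the start of treatment with ethanol extracts of medicinal herbs or herbal formulas, or with vehicle, and messenger RNA was sequenced in 60 libraries. The vehicle group held 3 libraries with DMSO at 0.1% in the sample labels and 2% in the series text. High, medium and low dose were 380, 76 and 15.2 µg/mL for Polygalae Radix, and for Aucklandiae Radix 370, 74 and 14.8 µg/mL, with 2 libraries at each dose of both. They were 500, 100 and 20 µg/mL for the other extracts, with 3 libraries at each dose of Guibi-tang, Menthae Herba, Saengmaek-san and Saposhnikoviae Radix and 2 at each dose of Soyo-san. Okbyeongpung-san had 1 library per dose and entered no test. The top dose of Polygalae Radix and Aucklandiae Radix was an inhibitory concentration (IC20 in the labels), each extract is a mixture, and the labels name no other cell line or clone.

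The basement membrane is a sheet of laminins and type IV collagen under epithelial cells, bound together by nidogens and by the proteoglycans perlecan and agrin. Fibronectin, fibrillar collagens and microfibrils of fibrillin form the interstitial matrix around it, and latent TGF-beta binding proteins store the growth factor TGF-beta there. Cells read this matrix through integrins and syndecans, and tissue inhibitors of metalloproteinases slow its breakdown.

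Promoter sequences are shown for 4 of the genes because their levels moved together or in opposite directions below. They come from RefSeq windows on GRCh38.p14, which run from 250 bases before to 50 bases after a start site, and 30 of the 36 genes had at least 1 window, 39 windows in all. AGRN, COL1A1, COL6A1, EFEMP1, LOXL2 and TIMP2 had no entry. COL4A1 and COL4A2, the chains of the common type IV collagen, start 127 bases apart on opposite strands, and the 126 bases between their starts, chr13:110307158-110307283 on the plus strand, are printed with the CCAAT and GC box matches in capitals.
COL4A1 and COL4A2: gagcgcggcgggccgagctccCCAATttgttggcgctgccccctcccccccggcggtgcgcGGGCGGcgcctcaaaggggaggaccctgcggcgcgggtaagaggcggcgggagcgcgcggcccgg
The 250 bases before the FN1 start, chr2:215436069-215436318 on the minus strand, hold the letters of a cyclic AMP response element (TGACGTCA, from -183 to -176) and a CCAAT box (CCAAT, from -162 to -158), both in capitals.
FN1: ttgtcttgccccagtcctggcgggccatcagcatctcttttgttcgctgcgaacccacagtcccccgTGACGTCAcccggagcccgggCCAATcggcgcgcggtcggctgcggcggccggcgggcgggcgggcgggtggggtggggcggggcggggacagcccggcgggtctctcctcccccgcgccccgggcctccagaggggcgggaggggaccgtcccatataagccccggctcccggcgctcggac
The 250 bases before the LAMA3 start in that table, chr18:23872770-23873019 on the plus strand and inside the annotated extent of the gene, hold the AP-1 letters TGANTCA at -125 to -119 and at -69 to -63, in capitals.
LAMA3: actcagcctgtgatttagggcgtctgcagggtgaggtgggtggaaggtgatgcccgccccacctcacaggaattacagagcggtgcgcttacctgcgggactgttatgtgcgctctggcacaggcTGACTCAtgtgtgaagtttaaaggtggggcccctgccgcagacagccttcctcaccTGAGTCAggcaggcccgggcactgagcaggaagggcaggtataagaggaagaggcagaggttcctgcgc

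Both strands were searched in all 35097 windows of that length, and matches of 1 motif may overlap those of another. TGACGTCA was found in 5.13% of the matrix gene windows (FN1 and LTBP1) and in 1.85% of all windows, and TGANTCA in 5.13% (LAMA3 and LAMB3) against 7.71%. CCAAT was found in 25.6% against 34.6%, TATAAA in 7.69% against 11.5%, and GGAATG, the letters of a TEAD site, in 7.69% against 14.0%. The GC box GGGCGG was found in 84.6% of the matrix gene windows against 44.9% of all, beside a median GC content of 69.0% against 58.7%. A match is a description of letters and shows no bound factor.

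Total expected counts per library ran from 17113963 to 33363661. The libraries fell into 2 classes by the unnamed gene ENSG00000282955, which lay at 3.45 CPM or less in 38 libraries (class 1) and at 19.4 CPM or more in 22 (class 2). Every library of vehicle, Soyo-san and Okbyeongpung-san was of class 2, every library of Menthae Herba and of Aucklandiae Radix of class 1, and 9 groups held both. Within those 9 groups class 2 was higher for 9 of the 36 matrix genes and lower for 9 (edgeR, adjusted p under 0.05), against 24.9% higher and 22.8% lower of the 18396 genes tested, and the median matrix gene differed by 0.01 on the log2 scale. With offsets for GC content and length 7 were higher and 14 lower. TIMP1 (0.29), LTBP3 (0.27) and LOXL2 (0.22) had the highest log2 class differences and FBN2 (-0.34) and COL12A1 (-0.30) the lowest. The 36 genes had a median exonic length of 8808 bases and a GC content of 56.3%, against 4162.5 bases and 48.8% over all genes tested. Of the marker lists, all 5 epithelial markers were present, with a summed level of 6550 to 6910 CPM in vehicle, 850 to 986 CPM in Polygalae Radix high dose, and 4110 to 4430 CPM in the high doses of Aucklandiae Radix and Menthae Herba. In Guibi-tang it was 5740 to 6750 CPM at the low and 3890 to 4860 CPM at the high dose. Most of this sum was KRT8 and KRT18, at 3740 and 2890 CPM in vehicle. CDH1 was at 34, KRT19 at 29.3 and EPCAM at 4.85 CPM there. Only 2 of 6 fibroblast markers passed 1 CPM in vehicle, COL3A1 and THY1, and the summed list was 12.9 to 14.1 CPM there and 5.89 to 6.10 CPM in Polygalae Radix high dose. It was 9.85 to 10.2 CPM in Aucklandiae Radix, 8.38 to 9.36 CPM in Menthae Herba and 12.1 to 13.1 CPM in Guibi-tang at the high dose. Of the other fibroblast markers PDGFRA, LUM and PDGFRB were at 0.64, 0.479 and 0.127 CPM in vehicle. PDGFRA and LUM were above 0 in every library, and DCN was at 0 in 44 libraries. The 4 endothelial markers summed to at most 0.403 CPM in any library. Of the 4 leukocyte markers only CD68 passed 1 CPM in vehicle, at 13.1 CPM, with 2.03 to 22.5 CPM over the libraries. LYZ was at 0 in 29 libraries, PTPRC in 55 and CD3E in all 60. The part of these marker levels in the results was not tested. Class entered as a covariate and by comparisons within a class, and the counts that moved with it are given in the last section.

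In vehicle the surface proteoglycan SDC1 had the highest level per length of the 36 genes, at 88.6 ± 2.72 CPM per kb of exon (SD, n = 3). Fibronectin, FN1, followed at 71.5 ± 1.27. The length counts every annotated exon of a gene, 3595 bases for SDC1 and 17315 for FN1, and can exceed that of 1 transcript. The order of genes depends on it, and in CPM alone FN1 was at 1240 and SDC1 at 319. The laminin gamma chain LAMC1 was at 54.5 ± 0.429 CPM per kb, and LAMB1 at 41.4 ± 0.584 and LAMA5 at 40.7 ± 0.646 did not differ beyond their spread. These 3 chains make laminin-511, the widespread laminin of adult epithelia. The metalloproteinase inhibitor TIMP1 lay at 48.8 ± 1.42 CPM per kb, and TIMP2 lay within that spread. By this measure the type IV collagen chains were lower, with COL4A2 at 8.88 ± 0.355 and COL4A1 at 4.74 ± 0.170 CPM per kb. Their annotated exons add up to 19293 and 14738 bases. LAMA4, a chain of mesenchymal and endothelial laminins, was lowest at 0.188 ± 0.0365 CPM per kb.

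The first question was how the matrix genes differed between the high and the low dose of each extract. The 36 genes summed to 4762 and 4893 CPM in the 2 libraries of Polygalae Radix low dose and to 1801 and 2068 CPM at the high dose. In Menthae Herba the sum was 4451 to 5372 CPM at the low dose and 2412 to 3022 CPM at the high dose, and in Aucklandiae Radix 4790 and 5272 CPM against 3996 and 4096 CPM. The high dose libraries of these 3 extracts all lay below the low dose libraries, and vehicle was above all of them at 5594 to 5674 CPM. FN1 alone gave 1210 to 1260 CPM of the vehicle sum. Without FN1 the sums were still apart, at 1666 and 1939 CPM against 3801 and 3983 CPM in Polygalae Radix. In bulk RNA, fewer cells expressing a gene and less RNA per cell cannot be told apart, and CPM are shares of a library, not amounts per cell.

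**Figure D1:**
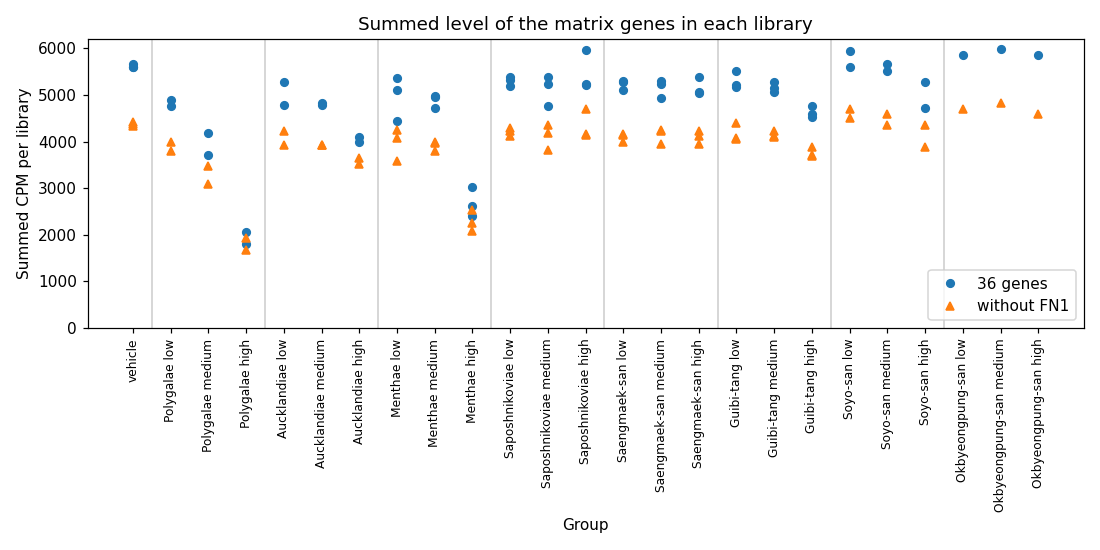
Summed CPM of the 36 matrix genes (circles) and of the 35 without FN1 (triangles) in each of the 60 libraries, by group. The Polygalae Radix high dose libraries lie at 1801 and 2068 CPM and the Menthae Herba high dose libraries at 2412 to 3022 CPM, below every other library.

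Gene by gene, 34 of the 36 fell and none rose between the low and the high dose of Polygalae Radix (edgeR quasi-likelihood test, Benjamini-Hochberg adjusted p under 0.05 over all genes tested). Over all 18396 genes the share past that threshold was 56.9%, with 29.1% lower and 27.9% higher. Both low dose libraries of Polygalae Radix are of class 1, and the high dose has 1 library of each class. In Menthae Herba 29 fell and none rose, where 15.3% of all genes passed, with 9.37% lower and 5.95% higher. In Aucklandiae Radix 14 fell and 4 rose, where 18.3% of all genes passed, with 9.25% lower and 9.01% higher. With only the 4 Aucklandiae Radix libraries in the fit, 20 fell and 8 rose. In Guibi-tang 7 fell and 1 rose (2.86% of all genes passed, 1.95% lower and 0.919% higher), and in Soyo-san 2 fell (1.19%, 0.81% lower and 0.375% higher). None of the 36 passed in Saposhnikoviae Radix or Saengmaek-san, where 0.0707% of all genes passed in each. That share was 0.0217% higher and 0.0489% lower in Saposhnikoviae Radix and 0.0598% higher and 0.0109% lower in Saengmaek-san, and 1 and 5 of the 36 had an unadjusted p under 0.05 (edgeR). DESeq2 also called none in either. The median log2 difference of the 36 was -1.24 in Polygalae Radix, -0.78 in Menthae Herba and -0.21 in Aucklandiae Radix, against 0.04, -0.01 and 0.01 over all genes tested. Nothing in the labels tells replicate cultures from repeat libraries, and the p-values cover only the spread between libraries. That spread was estimated from all 57 libraries in 1 fit and not for each group. Replicates differed more in Polygalae Radix high dose (chi-square per gene 90.3) than in vehicle (2.49 to 2.9), so SEs and p-values there rest in part on quieter groups. Where groups are said below not to overlap, this only describes the libraries. Between the medium and the low dose of Aucklandiae Radix 15 of the 36 had groups that did not overlap, and none passed. The share over all genes was not counted.

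**Figure D2:**
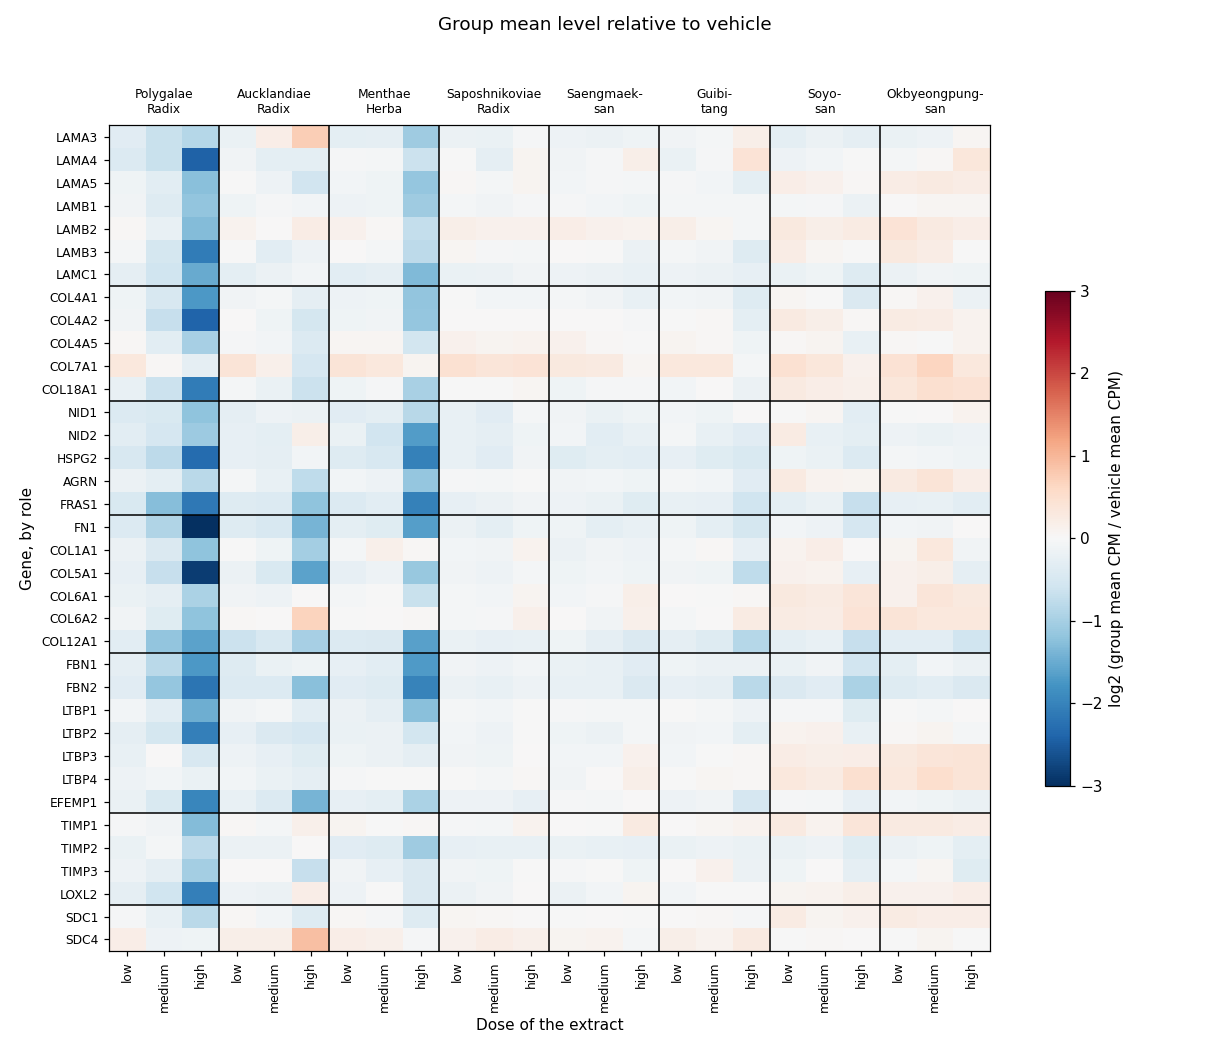
Log2 ratio of each group mean to the vehicle mean, from CPM, for the 36 genes (rows, by role, separated by lines) and the 24 extract and dose groups (columns). Blue marks lower and red higher than vehicle. The high dose columns of Polygalae Radix and Menthae Herba are blue in most rows, and LAMA3, COL6A2 and SDC4 are red in Aucklandiae Radix high dose.

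Across Polygalae Radix, Aucklandiae Radix and Menthae Herba, which share no library in their high against low comparisons, 12 of the 36 genes (33.3%) fell in all 3. Of all genes tested 298 (1.62%) did so. The 12 were LAMA5, COL4A2, COL4A5, COL18A1, AGRN, FRAS1, FN1, COL5A1, FBN2, EFEMP1, TIMP3 and SDC1. A further 15 (41.7% of the 36, against 2.95% of all genes) fell in Polygalae Radix and Menthae Herba and did not pass in Aucklandiae Radix. LAMA3 and LOXL2 fell in Polygalae Radix and Menthae Herba and rose in Aucklandiae Radix, and COL6A2 and SDC4 fell in Polygalae Radix, rose in Aucklandiae Radix and did not pass in Menthae Herba. LTBP3 and LTBP4 passed in none of the 3.

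The next question was how the high doses differed from vehicle. Of the 36, 33 fell with Polygalae Radix (59.5% of all genes passed, 29.5% lower and 30% higher), 29 fell with Menthae Herba (29.3%, 14.9% lower and 14.5% higher), and 19 fell and 4 rose with Aucklandiae Radix (35.4%, 17.1% lower and 18.3% higher). None rose with Polygalae Radix or Menthae Herba. In Guibi-tang 14 fell (9.33% of all genes passed, 4.95% lower and 4.38% higher), and with offsets for GC content and length 13 fell and 2 rose, and without Guibi-tang high dose replicate 1 the count was 9. In Soyo-san 10 fell and 5 rose (28.4%, 15.5% lower and 12.9% higher), and with those offsets 12 fell and 1 rose. In Saengmaek-san 1 fell (3.60%, 1.73% lower and 1.87% higher) and in Saposhnikoviae Radix none passed (0.902%, 0.381% lower and 0.522% higher), where 3 of the 36 had an unadjusted p under 0.05 (edgeR) and DESeq2 called 1. These comparisons share the same 3 vehicle libraries, which by the library names form a set apart from the extracts. Set and treatment cannot be told apart in any comparison with vehicle. Vehicle is also of class 2 only, and class and treatment cannot be told apart there for Aucklandiae Radix and Menthae Herba. Against vehicle the lowest log2 differences in Polygalae Radix were those of FN1 (-3.22 ± 0.12), COL5A1 (-2.86 ± 0.13), LAMA4 (-2.42 ± 0.24) and COL4A2 (-2.40 ± 0.08), and in Menthae Herba those of HSPG2 (-2.04 ± 0.16), FRAS1 (-2.03 ± 0.12), FBN2 and FBN1 (-1.70 ± 0.13), with FBN2 between FRAS1 and FBN1. In Aucklandiae Radix COL5A1 (-1.61 ± 0.12), FN1 (-1.40 ± 0.11), EFEMP1 (-1.40 ± 0.11) and FBN2 (-1.24 ± 0.18) were lowest, and SDC4 (0.89 ± 0.10), LAMA3 (0.75 ± 0.09), COL6A2 (0.67 ± 0.11) and LAMB2 (0.22 ± 0.08) were the 4 that rose. In Guibi-tang the lowest were COL12A1 (-0.86 ± 0.14), FBN2 (-0.79 ± 0.15), COL5A1 (-0.77 ± 0.10) and FRAS1 (-0.59 ± 0.11). FN1 in the 1 Polygalae Radix high dose library of class 2 differed from vehicle by -3.25, a value with no replicate check in that arm.

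Among the laminin chains, the cross-shaped trimers that seed the basement membrane, all 7 measured chains fell in Polygalae Radix (median -1.24 on the log2 scale) and all 7 in Menthae Herba (median -0.83). LAMC1, shared by most laminins, was at 383 and 382 CPM in Polygalae Radix low dose and at 156 and 167 CPM at the high dose. It was at 380, 404 and 324 CPM in Menthae Herba low dose and at 208, 181 and 158 CPM at the high dose. The groups did not overlap in either extract, and LAMC1 differed by -1.24 ± 0.08 and -1.02 ± 0.07 (log2 ± SE, edgeR adjusted p = 3.61e-17 and 4.75e-16). LAMB3, the beta chain of the epithelial anchoring laminin-332, fell from 18.9 and 19.2 to 4.27 and 5.05 CPM in Polygalae Radix. LAMA4 was low throughout, at 1.64 and 1.67 CPM in Polygalae Radix low dose and 0.407 and 0.399 CPM at the high dose, and fell by 2.03 ± 0.26 on the log2 scale.

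LAMA3, the alpha chain of laminin-332 whose upstream letters are shown above, took a different course by extract. In Aucklandiae Radix it was at 47.0 and 53.0 CPM at the low dose, 68.3 and 63.1 CPM at the medium dose and 102 and 91.4 CPM at the high dose. The 3 doses did not overlap, though the medium dose did not pass against the low dose. The high dose was higher than the low dose by 0.95 ± 0.11 (log2 ± SE, edgeR adjusted p = 2.59e-09). In Menthae Herba it was at 50.9, 49.9 and 39.3 CPM at the low dose and 28.9, 27.1 and 26.3 CPM at the high dose, a difference of -0.77 ± 0.09. In Polygalae Radix LAMA3 fell from 44.5 and 46.6 to 30.0 and 33.1 CPM. Of the other chains only LAMA5, the alpha chain of laminin-511, passed in Aucklandiae Radix, from 527 and 621 to 400 and 380 CPM (-0.56 ± 0.15, edgeR adjusted p = 0.0056).

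Of the basement membrane collagens all 5 fell in Polygalae Radix, 4 in Aucklandiae Radix and 4 in Menthae Herba. COL4A2 was at 159 and 157 CPM in Polygalae Radix low dose, 106 and 107 CPM at the medium dose and 34.0 and 30.9 CPM at the high dose. Its high against low difference was -2.28 ± 0.09, a 4.87-fold lower level. In Menthae Herba COL4A2 went from 159, 167 and 145 CPM at the low dose to 87.6, 77.5 and 65.9 CPM at the high dose (-1.02 ± 0.07, edgeR adjusted p = 7.89e-16), and the groups did not overlap. In Aucklandiae Radix it went from 173 and 168 CPM to 122 and 113 CPM (-0.54 ± 0.08, edgeR adjusted p = 2.15e-06).

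COL4A1, its partner chain across the shared start region, fell from 60.6 and 67.0 to 21.9 and 20.3 CPM in Polygalae Radix and from 62.2, 65.5 and 59.8 to 35.4, 31.7 and 25.7 CPM in Menthae Herba. The differences were -1.60 ± 0.11 and -1.01 ± 0.09 (log2 ± SE, edgeR adjusted p = 9.84e-17 and 1.15e-12). In Aucklandiae Radix COL4A1 was at 65.1 and 65.4 CPM at the low dose and 58.1 and 57.3 CPM at the high dose, which did not pass in the fit over all groups (-0.18 ± 0.10, adjusted p = 0.259) and passed with only those 4 libraries. The annotated extents of COL4A1 and COL4A2 overlap at their starts, the library kit marks strand, and no source used here gives the strand setting of the counting. COL18A1, the collagen that carries endostatin, fell from 137 and 141 to 39.7 and 36.1 CPM in Polygalae Radix. COL7A1, the collagen of anchoring fibrils, passed in Polygalae Radix (-0.59 ± 0.15) and Aucklandiae Radix (-0.87 ± 0.15) and not in Menthae Herba (-0.30 ± 0.12, adjusted p = 0.0976).

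**Figure D3:**
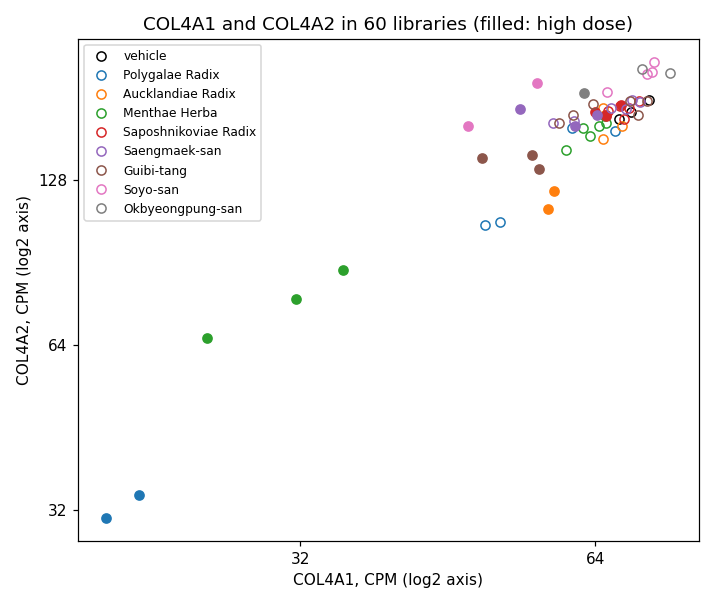
COL4A1 against COL4A2 in CPM, both on log2 axes, in the 60 libraries (colour by extract, filled at the high dose). Polygalae Radix high dose lies lowest, at 20.3 and 21.9 CPM of COL4A1 and 30.9 and 34.0 CPM of COL4A2, Menthae Herba high dose next, and the low and medium doses of most extracts near the vehicle libraries.

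The linkers and proteoglycans of the basement membrane fell in every case in Polygalae Radix and in Menthae Herba, 5 of 5 in each, with medians of -0.81 and -1.48. Perlecan, HSPG2, which carries heparan sulfate chains and binds growth factors, was at 233 and 197 CPM in Polygalae Radix low dose and at 70.9 and 50.5 CPM at the high dose. In Menthae Herba HSPG2 was at 241, 271 and 173 CPM at the low dose and 86.9, 68.7 and 62.9 CPM at the high dose. The groups did not overlap, and the differences were -1.83 ± 0.19 and -1.65 ± 0.16 (log2 ± SE, edgeR adjusted p = 1.33e-10 and 8.63e-11). In Aucklandiae Radix HSPG2 was at 233 and 274 CPM at the low dose and 304 and 259 CPM at the high dose, and the groups overlapped.

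FRAS1, a large protein that anchors epithelium to the underlying layer, fell in all 3 extracts. It went from 24.8 and 22.1 to 6.46 and 8.18 CPM in Polygalae Radix, from 22.8 and 26.6 to 13.5 and 14.4 CPM in Aucklandiae Radix, and from 23.6, 29.7 and 20.1 to 8.75, 7.22 and 7.88 CPM in Menthae Herba. No high dose library overlapped the low dose libraries of its extract, and the log2 differences were -1.66 ± 0.16, -0.82 ± 0.14 and -1.62 ± 0.12 (SE). Agrin, AGRN, also fell in all 3, by 0.63 ± 0.11, 0.71 ± 0.11 and 1.08 ± 0.09. NID2, a nidogen that links laminin to collagen IV, was at 3.79, 3.79 and 2.91 CPM in Menthae Herba low dose and at 1.45, 1.33 and 0.966 CPM at the high dose (-1.48 ± 0.18, edgeR adjusted p = 2.24e-08). In Aucklandiae Radix NID2 was at 3.46 and 3.21 against 4.73 and 4.33 CPM, which did not pass (0.44 ± 0.19, adjusted p = 0.113).

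In the interstitial matrix group FN1 and COL5A1 had the lowest log2 differences in Polygalae Radix and Aucklandiae Radix, and FN1 and COL12A1 (-1.22 ± 0.15) in Menthae Herba. FN1, the glycoprotein that integrins assemble into fibrils, was at 910 and 961 CPM in Polygalae Radix low dose, 695 and 623 CPM at the medium dose and 130 and 135 CPM at the high dose. The 3 doses did not overlap, and the high dose was 7.06-fold lower than the low dose (-2.82 ± 0.12, log2 ± SE). In Aucklandiae Radix FN1 was at 863 and 1040 CPM at the low dose and 451 and 486 CPM at the high dose (-1.02 ± 0.12, edgeR adjusted p = 5.19e-09). In Menthae Herba it was at 1020, 1120 and 873 CPM against 489, 369 and 328 CPM (-1.35 ± 0.10, edgeR adjusted p = 8.99e-15). All of these libraries lay below the vehicle libraries, at 1260, 1210 and 1240 CPM. Against vehicle the high doses differed by -3.22 ± 0.12, -1.40 ± 0.11 and -1.65 ± 0.10 in that order of extracts.

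**Figure D4:**
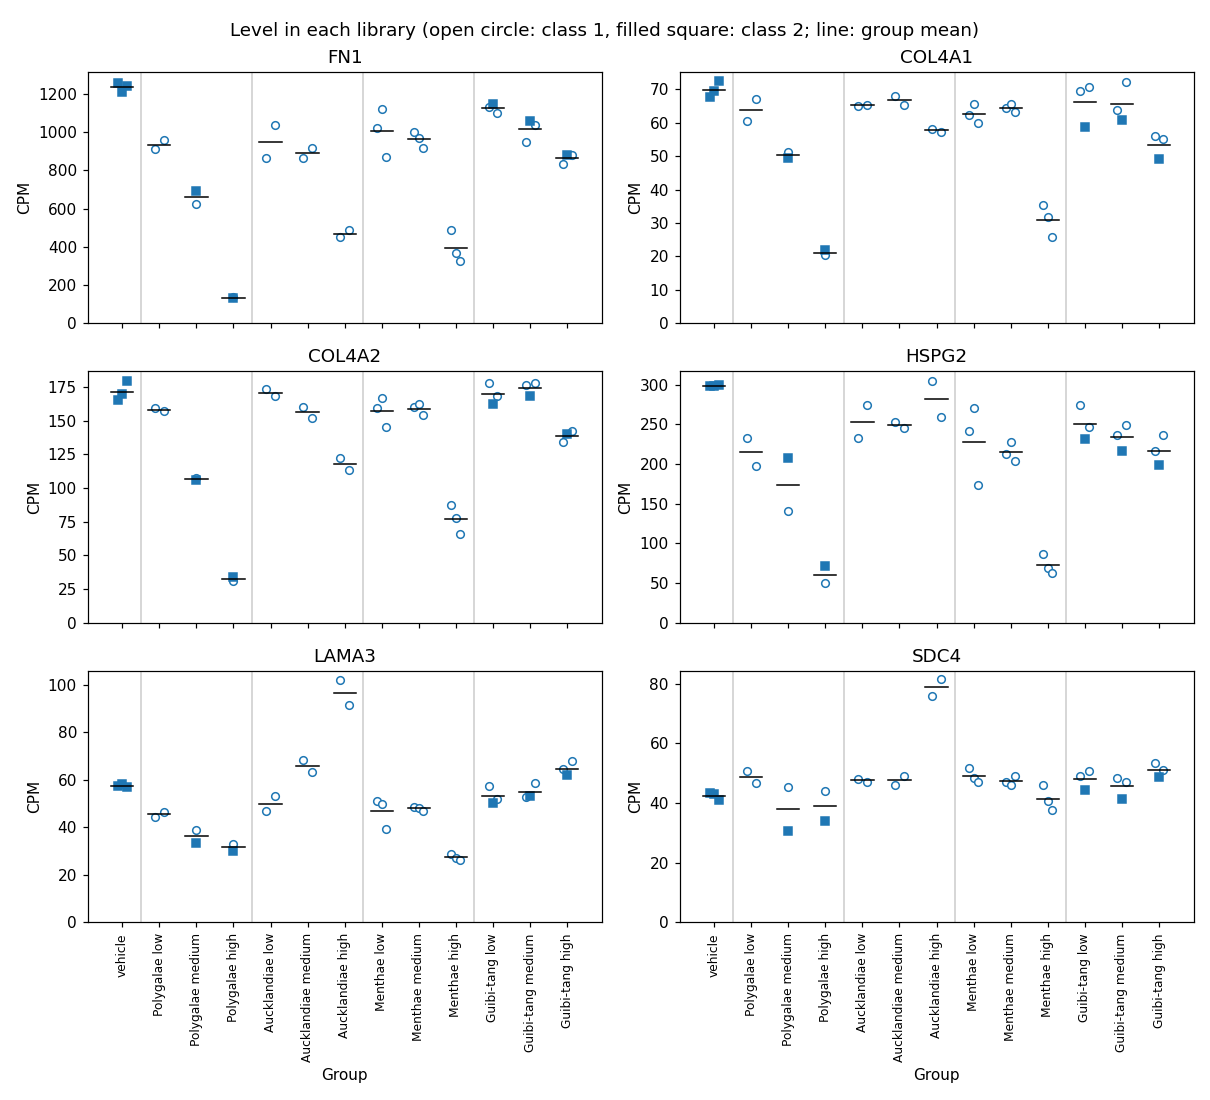
CPM of FN1, COL4A1, COL4A2, HSPG2, LAMA3 and SDC4 in each library of vehicle and of Polygalae Radix, Aucklandiae Radix, Menthae Herba and Guibi-tang at 3 doses. Open circles are class 1, filled squares class 2 and lines group means. LAMA3 and SDC4 are highest in Aucklandiae Radix high dose, at 91.4 to 102 and 75.9 to 81.7 CPM, where FN1 is at 451 and 486 CPM.

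COL5A1, a minor fibrillar collagen that starts fibrils of type I collagen, went from 134 and 126 to 25.1 and 17.4 CPM in Polygalae Radix (-2.62 ± 0.14). In Aucklandiae Radix it went from 130 and 139 to 51.7 and 48.7 CPM (-1.43 ± 0.13, edgeR adjusted p = 9.67e-12), and in Menthae Herba from 137, 141 and 110 to 82.4, 67.4 and 60.2 CPM (-0.89 ± 0.10, edgeR adjusted p = 5.61e-09). The groups did not overlap in any of the 3. COL1A1, the main chain of type I collagen, fell in Polygalae Radix (31.2 and 24.3 to 16.3 and 11.0 CPM) and in Aucklandiae Radix (32.3 and 30.1 to 14.7 and 16.1 CPM). In Menthae Herba COL1A1 was at 30.1, 32.0 and 28.3 CPM at the low dose and 31.7, 32.4 and 31.8 CPM at the high dose, and the groups overlapped (0.08 ± 0.11, adjusted p = 0.717). COL6A2, a chain of the beaded filament collagen VI, went from 8.60 and 11.2 to 15.0 and 15.9 CPM in Aucklandiae Radix (0.64 ± 0.12, edgeR adjusted p = 0.000146) and from 9.29 and 8.81 to 4.22 and 4.22 CPM in Polygalae Radix. COL6A1, the partner chain, did not pass in Aucklandiae Radix (0.13 ± 0.13).

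Of the 7 microfibril and TGF-beta binding genes, 5 fell in Polygalae Radix and in Menthae Herba and 2 in Aucklandiae Radix. FBN2, a fibrillin of developing microfibrils, went from 130 and 128 to 28.7 and 41.7 CPM in Polygalae Radix, from 116 and 129 to 70.8 and 65.6 CPM in Aucklandiae Radix, and from 130, 145 and 111 to 50.8, 38.1 and 32.2 CPM in Menthae Herba. No groups overlapped, and the log2 differences were -1.87 ± 0.20, -0.84 ± 0.19 and -1.67 ± 0.16 (SE). FBN1, the adult fibrillin, fell in Polygalae Radix (-1.42 ± 0.16) and Menthae Herba (-1.46 ± 0.13) and did not pass in Aucklandiae Radix (0.26 ± 0.14, adjusted p = 0.247). EFEMP1, a fibulin of elastic tissue, went from 43.1 and 41.0 to 18.6 and 18.3 CPM in Aucklandiae Radix, a difference of -1.19 ± 0.11, and from 42.9 and 42.7 to 14.4 and 10.7 CPM in Polygalae Radix, a difference of -1.79 ± 0.12. LTBP1 and LTBP2 fell in Polygalae Radix and Menthae Herba, while LTBP3 (-0.25 ± 0.15 and -0.14 ± 0.12) and LTBP4 (-0.06 ± 0.12 and 0.02 ± 0.10) did not pass in either. In Polygalae Radix LTBP3 was at 87.7 and 85.9 CPM at the low dose. At the high dose it was at 89.4 CPM in the class 2 library and 56.9 CPM in the class 1 library. LTBP4 was at 52.7 and 50.9 against 60.7 and 39.6 CPM in the same order. The 2 high dose libraries thus lay on either side of the low dose libraries. LTBP3 and LTBP4 were also among the genes higher in class 2 (0.27 and 0.19).

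Of the 3 metalloproteinase inhibitors measured, TIMP1 fell in Polygalae Radix, from 73.0 and 73.8 to 37.2 and 24.1 CPM (-1.27 ± 0.14), and did not pass in the other extracts. TIMP2 went from 229, 226 and 217 to 142, 136 and 123 CPM in Menthae Herba, without overlap (-0.75 ± 0.06, edgeR adjusted p = 2.52e-12), and from 250 and 240 to 185 and 140 CPM in Polygalae Radix. In Aucklandiae Radix TIMP2 did not pass (0.20 ± 0.08, adjusted p = 0.0663) and TIMP3, which binds to the matrix, fell by 0.71 ± 0.13. LOXL2, a lysyl oxidase that crosslinks collagen, went from 167 and 162 to 55.9 and 39.7 CPM in Polygalae Radix and from 182 and 175 to 237 and 222 CPM in Aucklandiae Radix. The log2 differences were -1.79 ± 0.11 and 0.36 ± 0.11 (SE, edgeR adjusted p = 1.23e-17 and 0.0135), and the groups did not overlap in either.

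The syndecans, surface proteoglycans that bind matrix through heparan sulfate, differed from each other in Aucklandiae Radix. SDC4 went from 48.2 and 46.9 to 75.9 and 81.7 CPM (0.73 ± 0.11, edgeR adjusted p = 3.46e-06) and SDC1 from 330 and 325 to 243 and 247 CPM (-0.42 ± 0.07, edgeR adjusted p = 1.08e-05). Neither pair of groups overlapped. In Polygalae Radix SDC4 was at 50.8 and 46.8 against 34.0 and 44.0 CPM (-0.32 ± 0.11, edgeR adjusted p = 0.0166), and the lower of the high dose libraries was the one of class 2, the class in which SDC4 was lower by 0.21 in mixed groups.

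**Figure D5:**
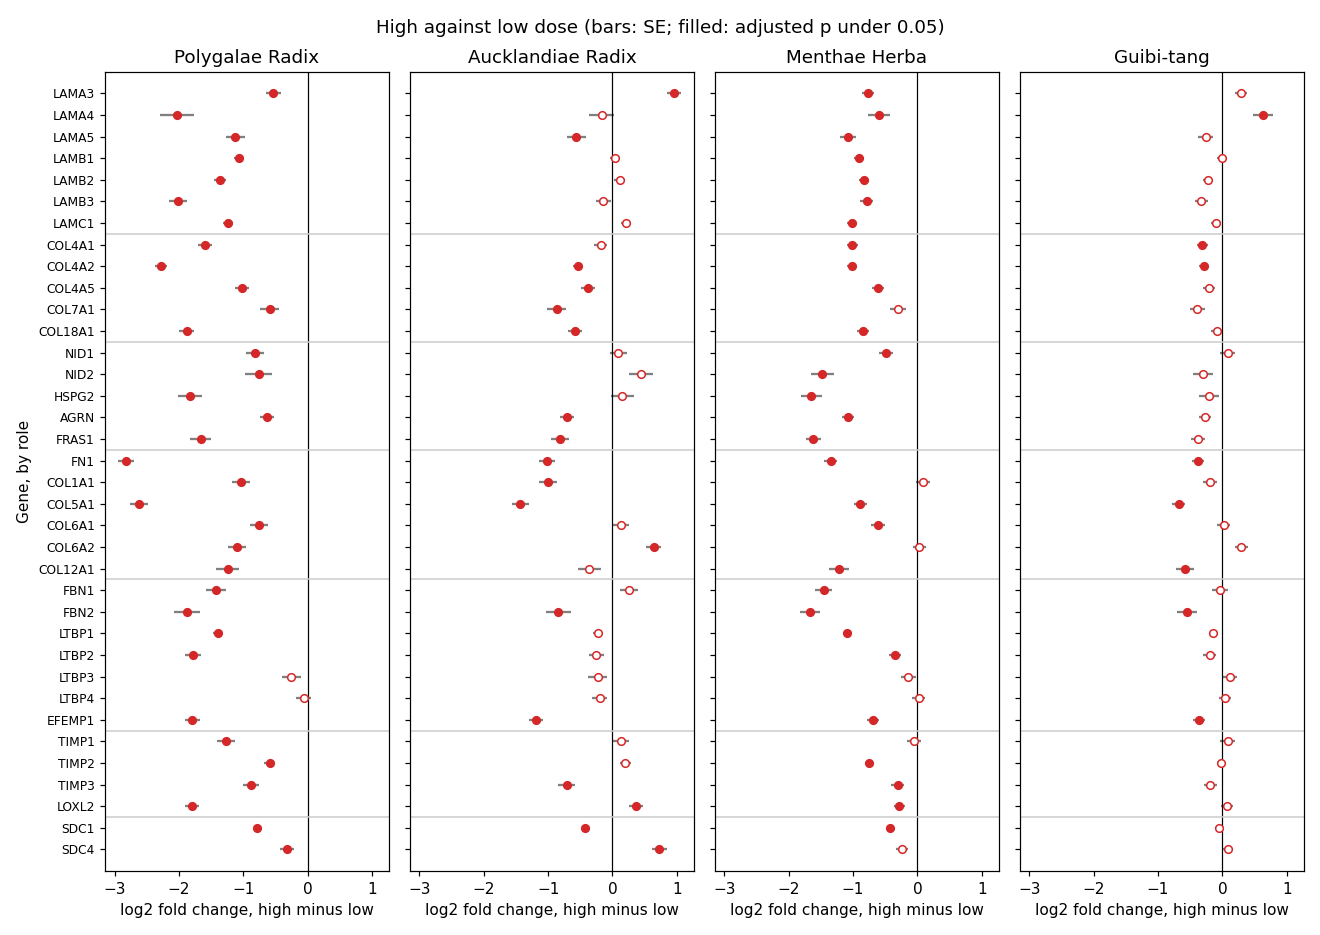
Log2 fold change of the high against the low dose with its SE for the 36 genes in Polygalae Radix, Aucklandiae Radix, Menthae Herba and Guibi-tang, by role. Filled points have an edgeR adjusted p under 0.05. FN1 is lowest in Polygalae Radix at -2.82, and LAMA3 and SDC4 are highest in Aucklandiae Radix at 0.95 and 0.73.

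Whether the extracts differed was tested as the difference between their high against low changes. Between Polygalae Radix and Aucklandiae Radix, whose doses were close but not equal, 30 of the 36 genes differed, all lower in Polygalae Radix, where 45.7% of all genes differed, with 25.3% lower and 20.5% higher. LOXL2 (-2.15 ± 0.16) and HSPG2 (-1.98 ± 0.27) had the largest differences, at edgeR adjusted p = 2.63e-15 and 6.29e-08, and within class 1, where the high dose of Polygalae Radix is 1 library, they were -2.42 and -2.24. AGRN (0.08 ± 0.15) and COL1A1 (-0.03 ± 0.20) were among the 6 that did not pass. Between Menthae Herba and Saposhnikoviae Radix, given at equal doses, 26 differed, all lower in Menthae Herba (6.29% of all genes, 4.47% lower and 1.83% higher), led by HSPG2 (-1.76 ± 0.22) and FRAS1 (-1.75 ± 0.17). In Saposhnikoviae Radix HSPG2 was at 243, 261 and 267 CPM at the low dose and 241, 341 and 251 CPM at the high dose, and FRAS1 at 26.0, 28.9 and 27.9 CPM against 28.4, 32.7 and 29.2 CPM.

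Between Menthae Herba at 500 µg/mL and Aucklandiae Radix at 370 µg/mL, a comparison chosen after the values were seen because all its libraries are of class 1, 20 of the 36 were lower and 4 higher in Menthae Herba. Of all genes 9.19% were lower and 7.38% higher, 16.6% in all. NID2 (-1.92 ± 0.26), HSPG2 (-1.80 ± 0.24), FBN1 (-1.72 ± 0.19) and LAMA3 (-1.71 ± 0.14) were lower, and COL1A1 (1.10 ± 0.18), COL7A1 (0.57 ± 0.20), COL5A1 (0.54 ± 0.16) and EFEMP1 (0.49 ± 0.15) were higher. FN1 did not pass, with a difference of -0.32 and a 95% interval of -0.63 to -0.02 (edgeR adjusted p = 0.144). For SDC1 the difference was 0.00 with an interval of -0.18 to 0.19. The doses differ, so the difference is between these treatments and not between equal amounts.

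In Guibi-tang the genes that fell were COL5A1, COL12A1, FBN2, FN1, EFEMP1, COL4A1 and COL4A2, and LAMA4 rose. COL5A1 was at 153, 142 and 135 CPM at the low dose and 90.5, 94.2 and 84.0 CPM at the high dose, without overlap (-0.68 ± 0.10, edgeR adjusted p = 1.39e-05). Its difference was -0.67 within class 1 and -0.69 within class 2, the latter between 1 library and 1 library with no replicate check. FN1 went from 1130, 1100 and 1150 to 835, 881 and 882 CPM (-0.38 ± 0.09, edgeR adjusted p = 0.0121), with -0.38 within class 1, not past the threshold, and -0.39 between the class 2 libraries. COL4A2 went from 178, 168 and 162 to 134, 142 and 140 CPM (-0.29 ± 0.07) and COL4A1 from 69.4, 70.7 and 58.7 to 56.1, 55.2 and 49.0 CPM (-0.31 ± 0.08). All 3 had every high dose library below every low dose library. COL12A1, a collagen on the surface of fibrils, went from 12.3, 12.2 and 11.2 to 8.57, 8.85 and 6.38 CPM (-0.58 ± 0.14, edgeR adjusted p = 0.0124).

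LAMA4 in Guibi-tang was at 1.66, 1.95 and 2.06 CPM at the low dose and 2.74, 3.08 and 2.94 CPM at the high dose (0.63 ± 0.16, edgeR adjusted p = 0.0131). Without Guibi-tang high dose replicate 1, or without low dose replicate 1, 4 of the 36 passed, and without low dose replicate 2, or without high dose replicate 3, 5 did. In Saengmaek-san, given at the same doses, the COL5A1 libraries overlapped, at 148, 146 and 130 CPM at the low dose and 152, 138 and 128 CPM at the high dose. The difference between the extracts was past the threshold in COL5A1 alone, at -0.66 ± 0.14 (edgeR adjusted p = 0.0174), where 0.440% of all genes differed. It lost the threshold with only those libraries in the fit, within class 1 (-0.58) and within class 2 (-0.80), and without Saengmaek-san high dose replicate 1, Saengmaek-san low dose replicate 3, Guibi-tang low dose replicate 1 or Guibi-tang high dose replicate 3.

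In Soyo-san COL4A1 was at 73.1 and 73.5 CPM at the low dose and 47.5 and 55.8 CPM at the high dose (-0.51 ± 0.10, edgeR adjusted p = 0.00455). LTBP1 was at 54.5 and 57.1 against 44.0 and 45.1 CPM (-0.33 ± 0.08, edgeR adjusted p = 0.0314). COL4A2 did not pass, at 201 and 210 against 160 and 192 CPM (-0.22 ± 0.08, adjusted p = 0.225). All of these libraries are of class 2, and with only them in the fit 6 of the 36 passed. Without Soyo-san high dose replicate 1, low dose replicate 1 or low dose replicate 2 none passed, and without high dose replicate 2 only 1 did. Against vehicle at the high dose FBN2 (-0.94 ± 0.18), COL12A1 (-0.71 ± 0.16), FRAS1 (-0.70 ± 0.13), FBN1 (-0.57 ± 0.14) and FN1 (-0.51 ± 0.11) were among the 10 that fell. LTBP4 (0.47 ± 0.11), COL6A2 (0.42 ± 0.12), TIMP1 (0.37 ± 0.12), COL6A1 (0.35 ± 0.12) and LAMB2 (0.23 ± 0.08) were the 5 that rose. With only the libraries of the 2 groups in the fit 17 fell and 7 rose. With offsets for GC content and length fewer rose than in the main fit, and TIMP1 was not among them. Its value is given in the last section.

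In Saposhnikoviae Radix the high against low log2 differences of the 36 genes ran from -0.10 to 0.20, and the 95% intervals of all 36 lay between -0.30 and 0.42. FN1 was at 1080, 1100 and 1090 CPM at the low dose and 1050, 1270 and 1060 CPM at the high dose. In Saengmaek-san the differences ran from -0.29 to 0.27 with intervals between -0.58 and 0.58, and FN1 was at 1140, 1130 and 1120 against 1090, 1170 and 956 CPM. The FN1 groups overlapped in both extracts. In Saengmaek-san high dose TIMP2 was the gene lower than vehicle, at 253, 230 and 233 CPM against 283, 282 and 280 CPM (-0.24 ± 0.06, edgeR adjusted p = 0.0249). None of the 36 passed when any 1 of the 3 vehicle libraries, or Saengmaek-san high dose replicate 3, was left out, and 3 passed without high dose replicate 1.

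Okbyeongpung-san, with 1 library per dose, has no replicate check. At the high dose 19 of the 36 genes lay above and 14 below the range of the vehicle libraries, where 39.1% and 33.6% of all genes tested did, and the median log2 ratio was 0.04. COL18A1 was at 219 CPM against 157 to 170 CPM in vehicle, LTBP3 at 134 against 98.0 to 105 CPM, and LTBP4 at 74.6 against 54.4 to 59.4 CPM. FBN2 was at 119 CPM against 157 to 166 CPM, FRAS1 at 26.1 against 31.8 to 33.3 CPM, and TIMP2 at 229 against 280 to 283 CPM. COL12A1 was at 9.47 CPM against 14.2 to 14.8 CPM. FN1, at 1260 CPM, lay just above the vehicle range.

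Along the doses, Polygalae Radix was the extract with matrix genes past the threshold between the medium and the low dose. At the medium dose 18 of the 36 were lower than at the low dose and none higher (11.7% of all genes passed, 6.77% lower), and 27 were lower than vehicle (18.2%, 9.57% lower). FRAS1 (-1.28), COL12A1 (-1.17), FBN2 (-1.16) and FN1 (-0.91) were the lowest against vehicle on the log2 scale. The Polygalae Radix low dose is of class 1 only and the medium dose has 1 library of each class. At the low dose 5 of the 36 were lower than vehicle (6.11% of all genes passed), namely FRAS1, NID1, FN1, LAMA3 and LAMC1. The medium doses of Aucklandiae Radix and Menthae Herba held 5 and 6 genes lower than vehicle and none higher (5.33% and 5.29% of all genes passed), and none of the 36 differed there from the low dose (0.00544% and 0.169% of all genes passed). In those tests 3 and 1 of the 36 had an unadjusted p under 0.05 (edgeR). FN1 and COL5A1 were among the 5 in Aucklandiae Radix, and NID2, COL12A1, TIMP2, FN1, LAMC1 and LTBP1 were the 6 in Menthae Herba. At the low dose of Aucklandiae Radix COL12A1, FN1 and LAMC1 were lower than vehicle (6.90% of all genes passed). At the low dose of Menthae Herba 7 were lower and COL7A1 was higher (0.38), where 12.8% of all genes passed. In Saposhnikoviae Radix 2 were lower than vehicle at the medium dose (7.49% of all genes passed). At its low dose 1 was lower and 1 higher (3.95%). At the low dose of Soyo-san COL7A1 (0.46), LAMB2 (0.30), COL4A2 (0.26) and SDC1 (0.24) were higher than vehicle and none lower (10.5%).

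Other genes of the matrix were counted from lists of receptors, proteases, collagen-processing enzymes, further matrix proteins and TGF-beta signal genes. The counts stand beside 56.9% of all genes past the threshold in Polygalae Radix (29.1% lower), 15.3% in Menthae Herba (9.37% lower), 18.3% in Aucklandiae Radix (9.25% lower) and 2.86% in Guibi-tang (1.95% lower). Between the high and the low dose, 15 of 16 integrins and other receptors fell in Polygalae Radix and in Menthae Herba (medians -0.87 and -0.56), and 3 fell and 4 rose in Aucklandiae Radix. ITGB4, which binds laminin in hemidesmosomes, was at 30.0 ± 2.29 CPM in Polygalae Radix low dose and 4.04 ± 0.256 CPM at the high dose (SD, n = 2). ITGA2, an integrin chain that binds collagen, was at 30.8 ± 4.21 and 71.8 ± 7.10 CPM in Aucklandiae Radix, the direction of LAMA3 and SDC4.

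Of 18 genes for collagen folding, hydroxylation and crosslinking, 14 fell in Polygalae Radix and 11 in Menthae Herba and none rose in either, while 3 fell and 4 rose in Aucklandiae Radix. SERPINH1, the collagen chaperone, was at 101 ± 1.18 CPM in Polygalae Radix low dose and 31.8 ± 0.650 CPM at the high dose. TGM2, a transglutaminase that crosslinks fibronectin, fell in Polygalae Radix (-2.49 ± 0.10), Aucklandiae Radix (-0.98 ± 0.09), Menthae Herba (-0.73 ± 0.07), Guibi-tang (-0.71 ± 0.07) and Soyo-san (-0.52 ± 0.09), with edgeR adjusted p from 6.62e-25 to 0.000924. Of 17 proteases and plasminogen genes tested, 11 fell and 3 rose in Polygalae Radix, 8 fell in Menthae Herba, and 7 fell and 5 rose in Aucklandiae Radix.

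Of 22 further matrix proteins tested, 13 fell and 2 rose in Polygalae Radix, 10 fell in Menthae Herba, 6 fell and 3 rose in Aucklandiae Radix, and 4 fell in Guibi-tang. SPARC, a collagen-binding protein, was at 25.0 ± 0.0733 and 12.7 ± 0.0696 CPM in Aucklandiae Radix (SD, n = 2). It was at 27.2 ± 1.32 and 12.4 ± 1.04 CPM in Menthae Herba and 29.1 ± 0.634 and 16.5 ± 1.69 CPM in Guibi-tang, low and high dose in that order (SD, n = 3). Of the 12 TGF-beta genes 4 rose and 3 fell in Polygalae Radix (median 0.10), 2 rose in Aucklandiae Radix, and 4 fell in Menthae Herba. The shares in Polygalae Radix and Aucklandiae Radix were near the 56.9% and 18.3% of all genes. SMAD3, the signal carrier of TGF-beta, rose in Polygalae Radix (0.69 ± 0.08, edgeR adjusted p = 2.25e-10) and Aucklandiae Radix (0.45 ± 0.08, edgeR adjusted p = 1.73e-05), in which FN1 and COL5A1 fell. TGFBR2, its receptor at the surface, fell in Menthae Herba from 95.6 ± 4.78 to 57.1 ± 3.62 CPM (-0.74 ± 0.06). No gene of the 5 lists passed in Saposhnikoviae Radix or Saengmaek-san between the high and the low dose (edgeR).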

How the data were processed

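RNA from A549 cells was sequenced in 60 libraries with a strand-marking kit, per the labels' protocols. The authors deposited expected counts per Ensembl gene, made with STAR 2.7.3a and RSEM 1.3.3 on GRCh38 after read checks and trimming (Trim Galore 0.6.5, FastQC 0.11.9), per the submitters' processing notes; 9.95% of these deposited expected counts carry decimals, and they were rounded for the fit. No source used here gives the annotation release or the strand setting of the counting. Symbols and extents came from the supplied name table and GENCODE 29, and all 39 genes matched. Every column of the table was used.

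Groups follow the labelled extract and dose. One fit of 57 libraries in 22 groups used edgeR 4.0.16 (R 4.3.3, limma 3.58.1) with TMM, filterByExpr, robust quasi-likelihood F-tests, two-sided, 35 residual degrees of freedom, and Benjamini-Hochberg adjustment over 18396 genes at 0.05 in each of 39 contrasts. All 36 genes kept passed the filter on low counts. SE was taken as the size of the log2 change over the root of F. CPM use the TMM-normalised totals and carry SDs. A ratio of Okbyeongpung-san to the vehicle mean used log2 CPM with a prior count of 2. The script was tested on counts simulated with the same spread in every group and no class difference, unlike these data. Of log2 changes of 1, 97% were recovered in Polygalae Radix and 100% in Menthae Herba, high against low dose. For changes of 0.5 the shares were 51% and 84%, so a gene that did not pass can still differ by that much.

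The genes, their roles, the other lists and the tests were chosen with earlier results of these data known. Genes with statistics were taken by a rule: up to 4 highest and 4 lowest log2 changes past the threshold per high dose comparison, up to 2 per direction between extracts, up to 3 per other list, and FN1, COL4A1 and COL4A2 throughout. Other genes were added to complete a role after their values were seen. Alternatives were DESeq2 size factors, the DESeq2 1.42.0 Wald test, no filter, the replicate number as a block, only the libraries compared, each library left out, a class covariate, GC and length offsets, and a prior count of 5. Comparisons within a class, the comparison of Menthae Herba with Aucklandiae Radix and a block with crossed numbers were added after the data were seen.

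Same-numbered libraries were checked for pairing by the correlation of their deviations from the group means across genes, which are not independent replicates. All 3 correlations passed 0.1 in Guibi-tang (0.18 to 0.72) and Saengmaek-san (0.11 to 0.57), high against low dose, where shared numbers also share the class in part; with the block 10 and 0 of the 36 passed. No replicate pair agreed within sampling noise, and the groups differed in this. Chi-square per gene between replicates was 90.3 in Polygalae Radix high dose and 119 at its medium dose. It reached 92.3 in Saengmaek-san high dose and was 2.49 to 2.9 in vehicle.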

Additional observations from a re-analysis of the deposited data

Results flagged for a closer look

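The change from low to high dose differed between extracts, by the test of the difference itself, for the genes below. Between Polygalae Radix and Aucklandiae Radix the largest differences were LOXL2 (-2.15 on the log2 scale) and HSPG2 (-1.98), lower in Polygalae Radix. Between Menthae Herba and Saposhnikoviae Radix they were HSPG2 (-1.76) and FRAS1 (-1.75), lower in Menthae Herba. Between Guibi-tang and Saengmaek-san it was COL5A1 (-0.66), lower in Guibi-tang. Between Menthae Herba and Aucklandiae Radix they were NID2 (-1.92) and HSPG2 (-1.80), lower in Menthae Herba, and COL1A1 (1.10) and COL7A1 (0.57), higher there. No group held enough libraries for a test of single outlying libraries.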

How the results depend on the processing

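Counts of matrix genes past the threshold stayed within 1.5 times their value under every setting run for Polygalae Radix and Menthae Herba against low dose and vehicle, Aucklandiae Radix against vehicle, Saposhnikoviae Radix and Saengmaek-san high against low dose, and the differences of Polygalae Radix and Menthae Herba from other extracts. With only the libraries compared in the fit the counts were 28 for Aucklandiae Radix, 2 for Guibi-tang and 6 for Soyo-san high against low dose, 24 for Soyo-san, 3 for Saposhnikoviae Radix and 0 for Saengmaek-san against vehicle, and 0 for Guibi-tang against Saengmaek-san. With a class covariate they were 14 for Guibi-tang and 4 for Soyo-san high against low dose, and 3 for Saposhnikoviae Radix and 10 for Saengmaek-san against vehicle. With GC and length offsets they were 15 for Guibi-tang high against low dose and 2 for Saposhnikoviae Radix and for Saengmaek-san against vehicle, and with the DESeq2 Wald test 14, 1 and 5 in that order. With no filter they were 6 for Soyo-san high against low dose, 1 for Saposhnikoviae Radix and 5 for Saengmaek-san against vehicle, and with DESeq2 size factors 3 for Saengmaek-san against vehicle. Within class 2 they were 2 for Guibi-tang and 6 for Soyo-san high against low dose, 24 for Soyo-san, 3 for Saposhnikoviae Radix and 9 for Saengmaek-san against vehicle, and within class 1 and within class 2 they were 0 for Guibi-tang against Saengmaek-san. The replicate block gave 1 for Saposhnikoviae Radix and 2 for Saengmaek-san against vehicle, 34 for Polygalae Radix, 19 for Aucklandiae Radix, 30 for Menthae Herba and 2 for Soyo-san high against low dose. In Aucklandiae Radix, where same-numbered libraries correlated at -0.12, a block with crossed numbers also gave 19.

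Leaving out 1 library at a time, the counts ran from 33 to 35 and from 33 to 34 for Polygalae Radix against low dose and vehicle, 16 to 17 and 19 to 22 for Aucklandiae Radix, 25 to 29 and 28 to 30 for Menthae Herba, 4 to 8 and 9 to 12 for Guibi-tang, and 0 to 1 and 10 to 13 for Soyo-san. They stayed at 0 for Saposhnikoviae Radix in both and for Saengmaek-san against low dose, and ran from 0 to 3 for Saengmaek-san against vehicle and from 0 to 2 for Guibi-tang against Saengmaek-san. Where an arm kept 1 library, here and within a class (both arms in Guibi-tang class 2), it was taken to vary like the other groups. With 1 library left out, 610 results of single genes kept their direction and side of the threshold, 59 lost it and 1 gained it. Some of those fits held 1 library in an arm. Of single genes under the other settings, 839 results kept their direction and side of the threshold, 24 lost it, 8 gained it and 1 reversed: TIMP1 in Soyo-san against vehicle, at -0.001 with GC and length offsets (edgeR adjusted p = 0.998). The cause was not tested. In Polygalae Radix and in Menthae Herba, high against low dose, the genes with the lowest levels in vehicle, LAMA4 (2.18 CPM) and NID2 (3.99 CPM), had the highest SEs of the 36.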
